A study of Mus musculus with 9 samples.

Results

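The regions described here are induced TGIF1 sites at which no MEIS1 peak was called. Peaks of all 8 lists that overlapped by at least 1 bp were merged. A region was a member when it held a peak from both TGIF1 4-OHT libraries, none from the 4 MEIS1 lists and none from the 2 TGIF1 EtOH lists. There were 1092 members, or 1.80% of the 60709 merged regions and 9.89% of the 11039 regions with a peak in both TGIF1 4-OHT lists. The members were chosen by the presence and absence of called peaks in these lists, which are measured values. Their number, and the lengths and summits of those same peaks, are therefore given as descriptions without a test.

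The cells were c-kit+ mouse bone marrow cells of the C57BL/6 strain. All of them had been transformed with MLL-AF9, a fusion oncogene of acute leukaemia, and all had been transduced with pMIG-TGIF1-ER, an inducible form of TGIF1. Induced cells received 4-OHT (4-hydroxytamoxifen) for 20 h, and the others received EtOH (ethanol). Chromatin immunoprecipitation with sequencing used a TGIF or a Meis antibody, with 2 libraries for each antibody and treatment. The 9th sample, an IgG precipitation, was not analysed here, so the share of members that a non-specific antibody would recover was not measured. Cells given 4-OHT without the construct were not analysed here either, and effects of the drug and of TGIF1 cannot be told apart. Whether replicate libraries stem from separate cultures is not stated in the labels, and differences between them may be technical.

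TGIF1 is a homeodomain protein that represses transcription and can act as a partner of SMAD proteins in the TGF-beta pathway. MEIS1 is an activating cofactor of HOX proteins and sustains the self-renewal of MLL-rearranged leukaemia cells. Both belong to the TALE class of homeodomains and recognise similar short DNA cores. Places with a called TGIF1 peak and no called MEIS1 peak are where their peak lists part.

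The lists held positions, lengths and summits of peaks, and no height or read number, so the depth of each library was unknown. They ranged from 592 to 48829 peaks. Absence of a peak therefore means that none was called, which a short list makes more likely. The TGIF1 EtOH lists, with 2764 and 592 peaks, were the shortest. Positions refer to mm9. The genes and sequences at these places are not given, because no mm9 genome or annotation was used here.

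Most induced TGIF1 regions carried MEIS1, and the members came from the minority that did not. Of the 11039 regions in both TGIF1 4-OHT lists, 1236 lacked MEIS1 in every list (11.2%, exact 95% interval 10.6 to 11.8%). The MEIS1 lists were long, with 21173 to 48829 peaks, and the share without MEIS1 over all 60709 merged regions is not given here. Whether 11.2% is particular to induced TGIF1 regions was therefore not tested. Of the same regions, 8692 (78.7%) had no TGIF1 EtOH peak. The 1092 members made up 12.6% (exact 95% interval 11.9 to 13.3%) of those 8692. The others divided into 3707 regions with MEIS1 in 1 to 3 lists and 3893 with MEIS1 in all 4 lists, the comparison regions below. The number of members rested on TGIF1 4-OHT replicate 1: without it, 5565 regions or 21.2% would have qualified.

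**Figure D1:**
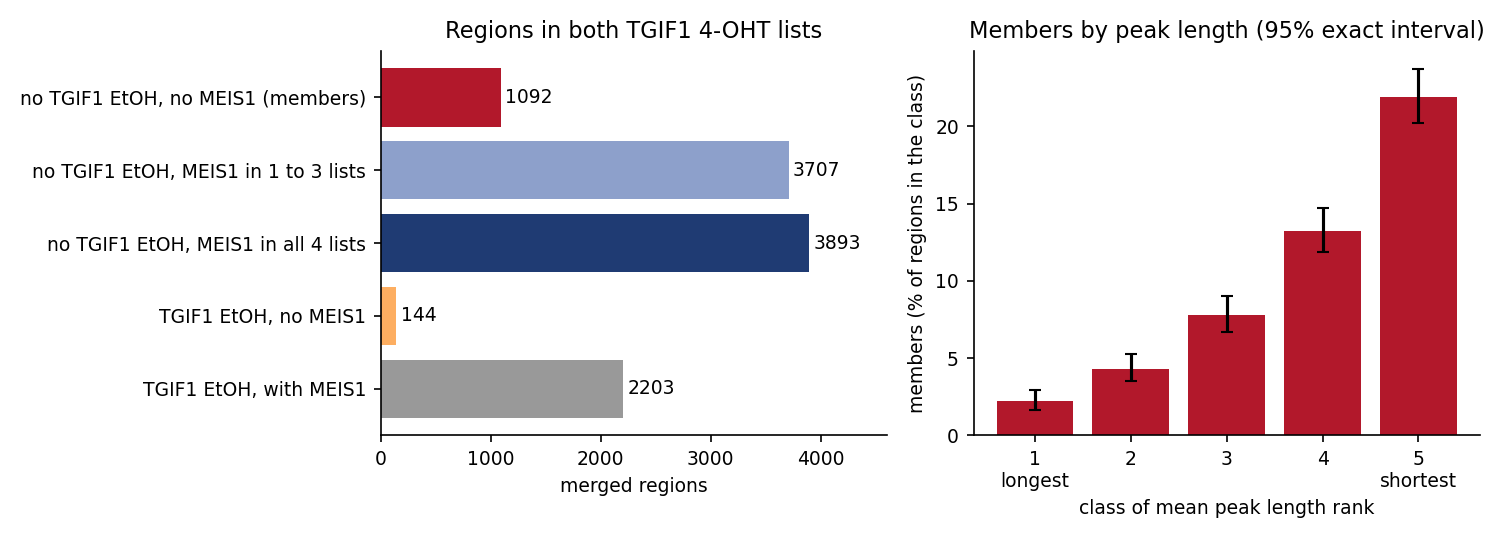
Left, number of merged regions with a peak in both TGIF1 4-OHT lists, by the presence of TGIF1 EtOH and MEIS1 peaks: 1092 members stand beside 3707 and 3893 regions with MEIS1. Right, members as a percentage of the regions in 5 classes of mean peak length rank, with exact 95% intervals: the share was 2.22% in the longest class and 21.9% in the shortest.

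Among regions without MEIS1, TGIF1 peaks were also rare before induction. No TGIF1 EtOH peak was present at 88.3% (1092 of 1236; exact 95% interval 86.4 to 90.1%) of the regions without MEIS1. The share was 77.5% (7600 of 9803; exact 95% interval 76.7 to 78.4%) at regions with MEIS1. Peak length moved with this difference. Within the shortest of 5 length classes the 2 shares were 95.5% and 95.9%, and within the second longest class they were 66.0% and 70.2%. Within the longest class they were 70.0% (exact 95% interval 57.9 to 80.4%) and 52.6% (exact 95% interval 50.4 to 54.7%). In the other 4 classes the exact intervals of the 2 shares overlapped. The part of peak length in the pooled difference was not tested.

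Members had shorter TGIF1 peaks than the comparison regions did. In TGIF1 4-OHT replicate 1 their 1096 peaks had a median length of 388 bp (interquartile range 329 to 438 bp). In replicate 2 their 1093 peaks had a median of 536 bp (interquartile range 463 to 645 bp). Over the whole lists the medians were 438 bp in replicate 1 and 567 bp in replicate 2. Nearly every member, 1087 of 1092 (99.5%), was made of a single peak from each list. Regions with MEIS1 in all 4 lists had longer TGIF1 peaks, with medians of 432 bp in replicate 1 and 655 bp in replicate 2. With MEIS1 in 1 to 3 lists the medians were 418 and 667 bp. The order of members below both kinds of comparison region was therefore the same in both libraries. It was not tested, because these peaks chose the members.

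Few members were among the long peaks of their lists. In replicate 1, 62 member peaks (5.66%) lay in the longest 20% of the list, against 14.7% for regions with MEIS1 in all 4 lists. In replicate 2 the shares were 11.3% (123 peaks) and 27.0%. The 144 regions without MEIS1 that had a TGIF1 EtOH peak were longer than the members, with medians of 488 bp in replicate 1 and 678.5 bp in replicate 2. Members were therefore shorter than these MEIS1-free regions too. Regions of a single TGIF1 4-OHT list without MEIS1 and TGIF1 EtOH peaks were shorter than members. Their medians were 347 bp for replicate 1 and 464 bp for replicate 2.

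**Figure D2:**
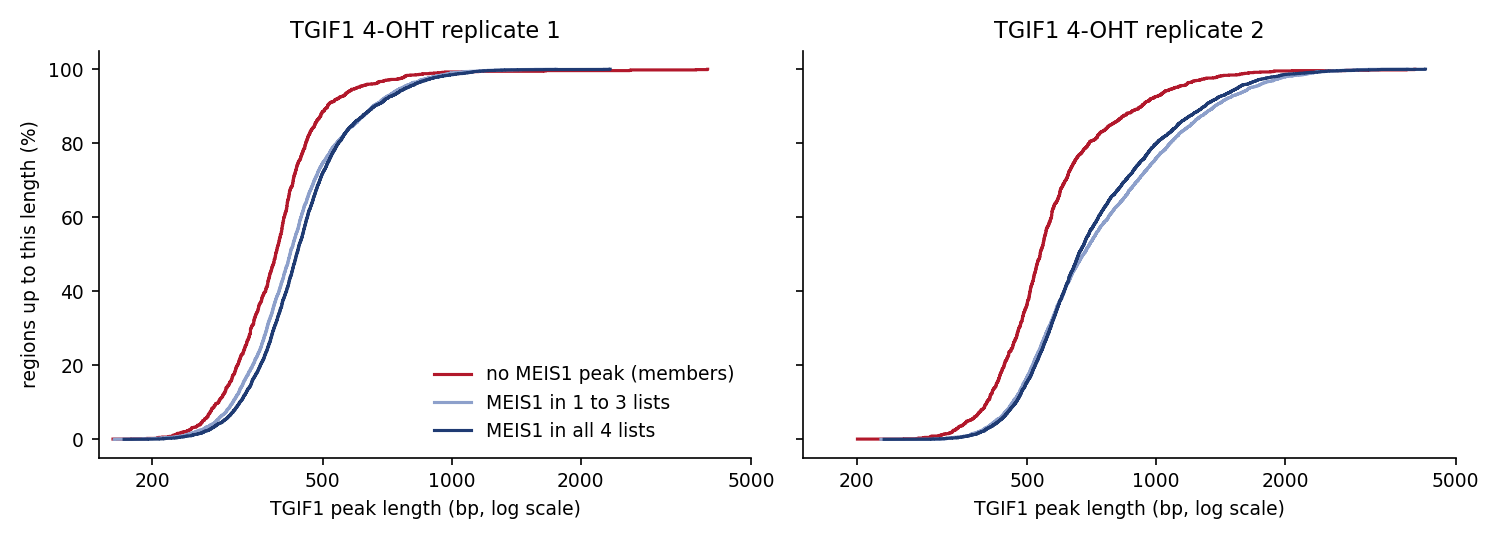
Cumulative percentage of regions by the length of their TGIF1 peak (bp, log scale; the longest peak where a region held several) in TGIF1 4-OHT replicate 1 (left) and replicate 2 (right). The curve of the members lies to the left of both curves of regions with MEIS1 in each library, with member medians near 388 and 536 bp.

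The share of induced TGIF1 regions that were members rose as TGIF1 peaks grew shorter. The 11039 regions were divided into 5 equal classes by the mean of their length ranks in the 2 lists. From longest to shortest, members made up 2.22%, 4.30%, 7.79%, 13.2% and 21.9% of the classes. The exact 95% interval was 1.65 to 2.92% in the longest class and 20.2 to 23.7% in the shortest. The condition on TGIF1 EtOH peaks, met by 1173 of 2208 regions in the longest class and 2116 of 2208 in the shortest, entered this rise. Among the regions that met it, the share of members still rose, from 4.18% in the longest class to 22.9% in the shortest. The condition on MEIS1 peaks can enter the rise too, because a longer TGIF1 peak has more bases that a MEIS1 peak can overlap. The part of this was not tested. The shortest class alone held 484 of the 1092 members, and the longest held 49. Length is not occupancy. It varies with read depth and with the width of the bound segment, and the lists give neither.

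Replicates varied together in peak length at members. The peak was longer in replicate 2 at 1045 of 1092 members (95.7%), and the median member peak was 40.1% longer there than in replicate 1. At regions with MEIS1 in all 4 lists it was 50.4% longer. Across the 1092 members, lengths in the 2 libraries had a Pearson correlation of 0.74 and a Spearman correlation of 0.53. By rank, the correlation at members was as low as with MEIS1 in 1 to 3 lists (0.54) and below that with MEIS1 in all 4 lists (0.60), whereas the Pearson values there were 0.49 and 0.52. These are correlations across regions of the same 2 libraries and describe those libraries.

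The summits of the 2 TGIF1 4-OHT libraries lay close together within members. The median distance between them was 14 bp (exact 95% interval of the median 13 to 15 bp, interquartile range 6 to 27 bp). They were within 50 bp of each other at 995 of 1092 members (91.1%, exact 95% interval 89.3 to 92.7%). The share was 83.3% (exact 95% interval 82.1 to 84.4%) at regions with MEIS1 in all 4 lists and 81.0% (79.7 to 82.3%) at regions with MEIS1 in 1 to 3 lists. Peak length moved with this too. Among regions whose replicate 1 peak was 329 to 439 bp long, the shares were 92.6% for members, 88.7% with MEIS1 in all 4 lists and 84.0% with MEIS1 in 1 to 3 lists. At matched length in replicate 1, members stayed above both. However, the exact 95% interval of members (90.1 to 94.6%) overlapped that of regions with MEIS1 in all 4 lists (87.1 to 90.3%). Members were not above regions without MEIS1 that had a TGIF1 EtOH peak, at 92.7% (38 of 41, exact 95% interval 80.1 to 98.5%). With both MEIS1 and a TGIF1 EtOH peak the share was 87.8%. Over all lengths these 2 kinds had lower shares than members (87.5% and 86.3%) but smaller median distances (9 and 11 bp). The rule also enters this comparison. A member holds only TGIF1 4-OHT peaks, so peaks of its 2 libraries overlap each other. In a comparison region, a MEIS1 peak can join TGIF1 peaks that do not overlap. The part of this in the difference was not tested.

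The summit of a member peak usually lay near the middle of the peak. In replicate 1 it fell between 40 and 60% of the peak's length in 70.2% of member peaks, and in replicate 2 in 70.4%. For regions with MEIS1 in all 4 lists these shares were 64.3% and 59.6%. The summit was thus more often central in member peaks, in both libraries, and member peaks were also shorter. The part of length in this was not tested, and the lists do not give the shape of a peak.

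How many regions lacked MEIS1 depended on which MEIS1 lists were consulted. Against MEIS1 EtOH replicate 1 alone, 3454 of the 8692 induced regions had no peak, and against MEIS1 EtOH replicate 2 alone 1474. Against MEIS1 4-OHT replicate 1 alone the number was 4344, and against MEIS1 4-OHT replicate 2 alone 1575. The 2 replicate 2 lists were the longer ones, with 43564 and 48829 peaks against 26254 and 21173. Both EtOH lists together left 1366 regions and both 4-OHT lists together left 1524. Any 3 lists left between 1104 and 1390, and all 4 left the 1092 members. The 2 long lists alone left 1165, so the short lists removed few regions beyond them.

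**Figure D3:**
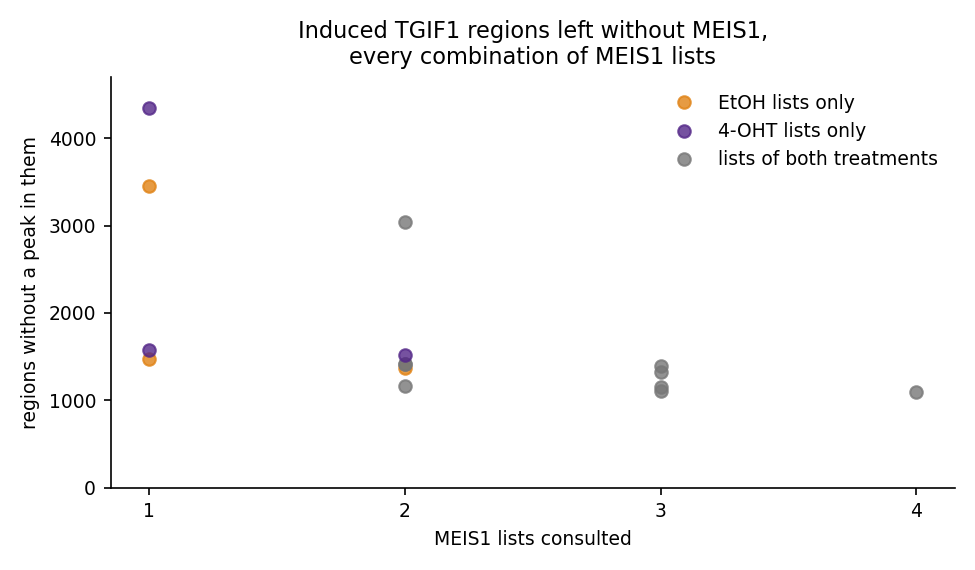
Number of induced TGIF1 regions without a TGIF1 EtOH peak (y axis) that had no peak in the MEIS1 lists consulted, for every combination of 1 to 4 lists (x axis, 1 point per combination, coloured by treatment of the lists). The number ranged from 1474 to 4344 with 1 list and from 1104 to 1390 with 3, and was 1092 with all 4.

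The regions just outside the rule were mostly kept out by a long MEIS1 list. A MEIS1 peak in a single list was found at 599 regions that met every other condition. That list was MEIS1 EtOH replicate 2 at 298 of them and MEIS1 4-OHT replicate 2 at 233. It was MEIS1 EtOH replicate 1 at 56 and MEIS1 4-OHT replicate 1 at 12. By treatment, 78 of the 8692 induced regions had a peak in both MEIS1 EtOH lists and in neither 4-OHT list, and 29 had the reverse. The same counts over all merged regions are not given here, and the lists differ in length. A change of MEIS1 with treatment was therefore not tested by these counts. Marginal contacts were rare. At 7576 of the 7600 induced regions with MEIS1, a MEIS1 peak covered more than 200 bp of a TGIF1 4-OHT peak, and at 2 the largest overlap was 50 bp or less.

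The smallest such overlap, 4 bp, was on chromosome 5 from 31455779 to 31457022, with peaks of MEIS1 EtOH replicate 2 and MEIS1 4-OHT replicate 2. The next, 47 bp, was on chromosome 19 from 59424562 to 59425494, with a peak of MEIS1 EtOH replicate 2. Overlaps of 51 bp each kept out a pair of regions of chromosome 1, from 43148377 to 43150056 and from 103798695 to 103799687, again with MEIS1 EtOH replicate 2. A region on chromosome 6 from 120770188 to 120771309 had peaks in all 4 MEIS1 lists, and the largest overlap there was 57 bp. In these 5 regions the TGIF1 summits of the replicates were 1 to 34 bp apart. Distances within 50 bp were usual both at members (91.1%) and at regions with MEIS1 in all 4 lists (83.3%) or in 1 to 3 lists (81.0%).

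The members just inside the rule had MEIS1 next to them. The closest was chromosome 15 from 78725039 to 78725925, with a TGIF1 peak of 603 bp in replicate 1 and 887 bp in replicate 2 and a MEIS1 peak 9 bp away. All 4 MEIS1 lists had a peak within 1 kb of it, and a TGIF1 EtOH peak lay 880 bp away. On chromosome 6 from 85910538 to 85910884 the gap was 11 bp. A member on chromosome 5 from 121790569 to 121791052 had a gap of 17 bp. Gaps of 18 bp each were found on chromosome 1 from 89529306 to 89529765 and at a member of chromosome 11 from 120458584 to 120459343. At the last 4 of these 5 members, the lists with a peak within 1 kb were MEIS1 EtOH replicate 2 and MEIS1 4-OHT replicate 2.

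MEIS1 was close to many members without overlapping them. The median gap from the edge of a member to the nearest MEIS1 peak of any list was 3396.5 bp (exact 95% interval of the median 2951 to 3906 bp). The gap was at most 200 bp at 105 members (9.62%) and 200 to 1000 bp at 202 (18.5%). It was 1 to 10 kb at 493 (45.1%), 10 to 100 kb at 274 (25.1%) and over 100 kb at 18 (1.65%). Members were therefore spread from the flanks of MEIS1 peaks to places far from any.

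This spacing was close to that between MEIS1-bound TGIF1 regions and the next MEIS1 peak. Leaving aside the MEIS1 peaks inside a region, the next MEIS1 peak was within 10 kb at 73.3% of members (exact 95% interval 70.5 to 75.9%) and at 74.3% of regions with MEIS1 in all 4 lists (72.9 to 75.7%). It was within 1 kb at 28.1% of members (exact 95% interval 25.5 to 30.9%) and at 24.2% of regions with MEIS1 in all 4 lists (22.9 to 25.6%). Gaps were measured from region edges, and members were shorter, with a median of 539 bp against 888 bp. From summit to summit, another region's MEIS1 was within 1 kb at 13.4% of members (exact 95% interval 11.4 to 15.5%) and 6.91% (6.13 to 7.75%) of the other set. Regions with MEIS1 extend over the bases around their own summit, where a further region cannot start, and the part of this in the difference was not tested.

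**Figure D4:**
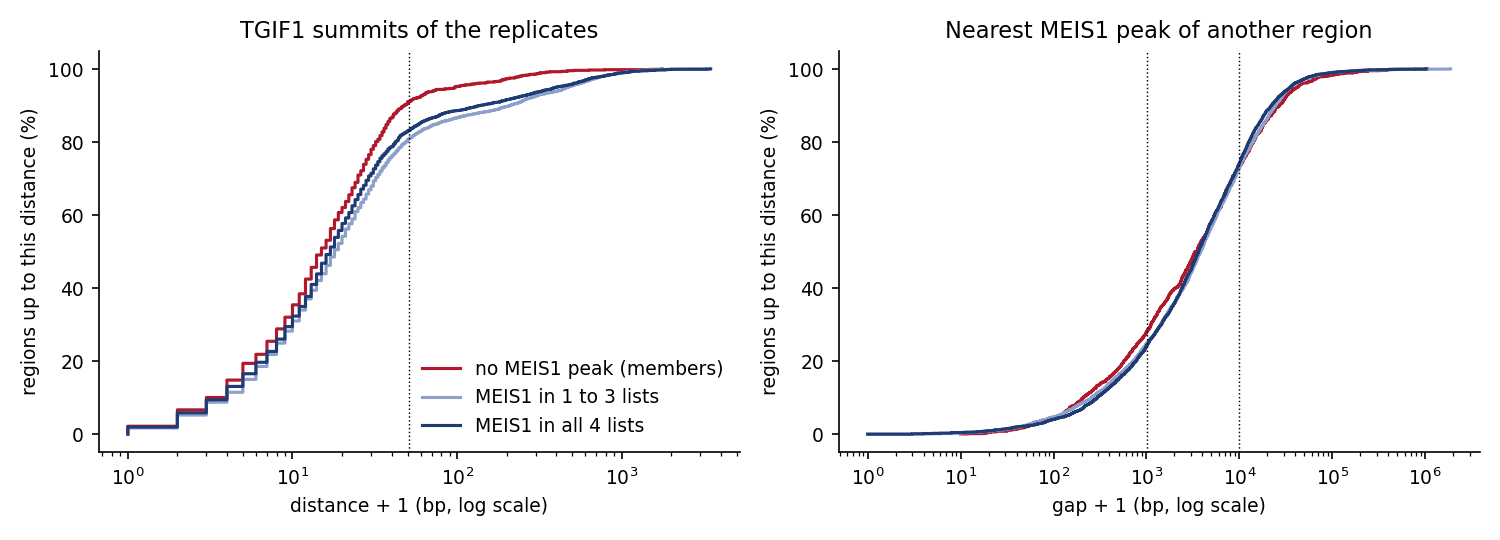
Left, cumulative percentage of regions by the distance between the TGIF1 summits of the 2 replicates (bp plus 1, log scale; dotted line at 50 bp). Right, the same for the gap to the nearest MEIS1 peak of another region (bp plus 1, log scale; dotted lines at 1 and 10 kb): the members leave the comparison curves on the left (91.1% within 50 bp) and run beside them at 10 kb on the right (73.3%).

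The MEIS1 peaks near members were seen under both treatments. Within 1 kb of a member, MEIS1 EtOH replicate 1 had a peak at 10.9% and replicate 2 at 23.6% of the 1092 members. MEIS1 4-OHT replicate 1 had one at 8.97% and replicate 2 at 24.8%. The means were 17.3 ± 9.00% under EtOH (SD, n = 2) and 16.9 ± 11.2% under 4-OHT (SD, n = 2). The groups overlapped, and their difference was -0.37 percentage points. Replicate 1 lists were the shorter ones under both treatments, so the spread within a treatment moved with list length. An exact permutation test of 2 against 2 libraries cannot give a p below 0.333 (two-sided p = 1.0 here) and says nothing on whether the treatments differ. Between libraries of equal number, the difference of 4-OHT from EtOH was -1.92 points for number 1 and 1.19 points for number 2. Its direction turned with single libraries. Leaving out an EtOH library gave -6.79 points (MEIS1 replicate 1 omitted) or 6.26 points (replicate 2 omitted). Leaving out a 4-OHT library gave 7.43 points (replicate 1 omitted) or -8.0 points (replicate 2 omitted). Within 10 kb the means were 58.7 ± 13.8% under EtOH and 55.6 ± 18.8% under 4-OHT (SD, n = 2 each).

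Some of these neighbours were seen in every list. Of the 307 members with a MEIS1 peak within 1 kb, 74 had one in all 4 lists, 53 in 3, 111 in 2 and 69 in 1. Neighbours were found in both MEIS1 EtOH lists at 111 members and in both MEIS1 4-OHT lists at 97. At 35 members the neighbour was in EtOH lists only, and at 41 in 4-OHT lists only. Members with a MEIS1 peak within 1 kb were like those with none within 10 kb in peak length, with medians of 389 and 391 bp in replicate 1 and 560 and 517 bp in replicate 2. The median summit distance was 13 bp in both kinds. Their TGIF1 surroundings differed, but the split by MEIS1 distance fixes part of this in advance. Another region found in both TGIF1 4-OHT lists lay within 10 kb of 179 of the 307 members near MEIS1 (58.3%) and of 14 of the 292 far from it (4.79%). The median gaps were 3976 and 45053.5 bp. Over all members, 407 had such a TGIF1 region with MEIS1 of its own within 10 kb, so both gaps can end at the same region. Members far from MEIS1 were chosen for lacking it within 10 kb. Of the 11039 regions in both TGIF1 4-OHT lists, 9803 carried MEIS1, and these could hardly lie within 10 kb of a far member.

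Members also lay near other TGIF1 regions. Another region found in both TGIF1 4-OHT lists was within 10 kb of 448 members (41.0%, exact 95% interval 38.1 to 44.0%). The share was 32.0% (30.5 to 33.5%) for regions with MEIS1 in all 4 lists and 34.9% (33.4 to 36.5%) for regions with MEIS1 in 1 to 3 lists. Measured between replicate 1 summits, the shares were 39.4% for members (exact 95% interval 36.5 to 42.3%), 29.9% (28.5 to 31.4%) and 32.7% (31.2 to 34.3%). Members were the shorter regions, with a median of 539 bp against 888 and 825 bp. TGIF1 peaks merged into a region do not count as its neighbours. The part of this in the differences was not tested. Another member was within 10 kb of 87 members (7.97%, exact 95% interval 6.43 to 9.73%). A member was that close to 4.32% (3.70 to 5.00%) of regions with MEIS1 in all 4 lists and to 6.26% (5.50 to 7.09%) with MEIS1 in 1 to 3 lists. Along the chromosomes, neighbouring members were a median of 786919 bp apart. The most members in a 1-Mb window was 6, reached in 6 windows, and 417 of the 679 windows with a member held 1.

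A TGIF1 EtOH peak was within 10 kb of 149 members (13.6%, exact 95% interval 11.7 to 15.8%). It was that close to 8.45% (exact 95% interval 7.60 to 9.37%) of regions with MEIS1 in all 4 lists and to 8.93% (8.03 to 9.89%) with MEIS1 in 1 to 3 lists. From summit to summit, TGIF1 EtOH replicate 1 gave 13.1% for members and 7.60% for regions with MEIS1 in all 4 lists, and replicate 2 gave 3.21% and 1.08%. The order was the same with each EtOH library. The difference in edge-to-edge shares, 5.19 percentage points, was 1.58 without TGIF1 EtOH replicate 1, the longer of the 2 lists. Restricting the members to those without a MEIS1 peak within 1 kb brought it to 2.12 points (95% interval -0.04 to 4.61). Regions with MEIS1 in all 4 lists were not restricted by further MEIS1 peaks near them, so the 2 sets were then chosen unlike. A region that a TGIF1 EtOH peak overlaps is in none of these sets, and the comparison regions were longer than members. The part of this in the difference was not tested.

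Regions are not replicates, and those of 1 list share its library and depth. The intervals of shares therefore cover the counting of regions in these libraries, and a difference between members and other regions over cultures was not tested.

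Members were found on all 19 autosomes and on chromosome X. By number, chromosome 11 had 95 members, chromosome 5 had 94 and chromosome 2 had 75. As a share of the regions in both TGIF1 4-OHT lists, members ranged over the autosomes from 7.08% on chromosome 15 (48 of 678) to 12.4% on chromosome 5 (94 of 759). On chromosome X the share was 20.7% (17 of 82, exact 95% interval 12.6 to 31.1%), against 9.81% (1075 of 10957, exact 95% interval 9.26 to 10.4%) on the autosomes together. Chromosome X was singled out after its value was seen.

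**Figure D5:**
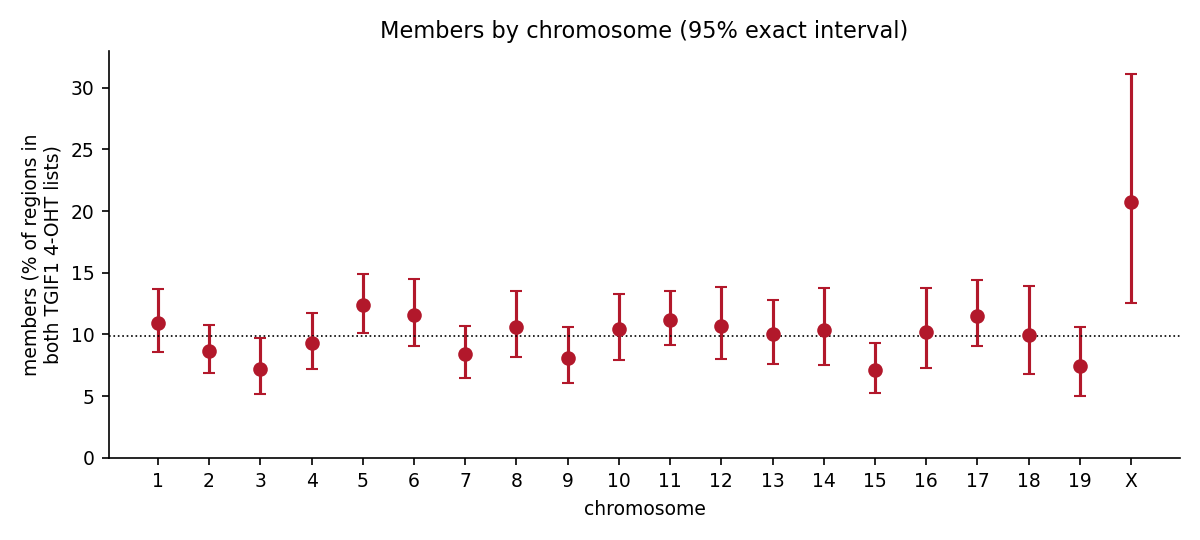
Members as a percentage of the regions in both TGIF1 4-OHT lists on each chromosome, with exact 95% intervals; the dotted line is the value over all chromosomes, 9.89%. Chromosome X, at 20.7% with a wide interval from 82 regions, lies above the autosomes, which range from 7.08 to 12.4%.

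Both MEIS1 and TGIF1 peaks were few on chromosome X. It held 1.24% of the regions with MEIS1 and 0.743% of the regions in both TGIF1 4-OHT lists. The median gap from an X member to the nearest MEIS1 peak was 23168 bp, against 3276 bp on the autosomes. Absence of MEIS1 on X extended to regions with a TGIF1 EtOH peak, where 9 of 20 had none (45.0%, exact 95% interval 23.1 to 68.5%), against 135 of 2327 on the autosomes (5.80%). Peak length moved with the chromosome: 37.8% of the X regions and 19.9% of the autosomal ones were in the shortest length class. Outside that class members made up 15.7% of X regions (8 of 51, exact 95% interval 7.02 to 28.6%) and 6.83% of autosomal ones. Within it they made up 29.0% (9 of 31, exact 95% interval 14.2 to 48.0%) and 21.8%. The difference between X and the autosomes was 10.9 points (95% interval 3.53 to 20.9). It was 17.3 points without TGIF1 EtOH replicate 1, 20.7 with TGIF1 EtOH peaks ignored and 19.3 with the longer 50% of each list. Other alternatives gave smaller values, the lowest 9.22 points (95% interval 1.97 to 18.8) without TGIF1 4-OHT replicate 2. With the libraries of number 1 only it was 10.8 points (95% interval 0.98 to 21.1).

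The members with the longest TGIF1 peaks, ranked by the mean of their length ranks in the 2 lists, stood apart from the rest. The first lay on chromosome 12 from 117486719 to 117490732, with peaks of 3952 bp in replicate 1 and 4014 bp in replicate 2. The second lay on chromosome 13 from 58447621 to 58451461, with 3715 and 3841 bp. In these the 2 summits were 1757 and 1482 bp apart, far more than the median of 14 bp. The broad peaks of the 2 libraries thus did not mark the same point.

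The third, on chromosome 1 from 153647187 to 153650304, had peaks of 2615 and 3118 bp and summits 251 bp apart, with the nearest MEIS1 peak 43911 bp away. The next, on chromosome 15 from 80070181 to 80072951, had 2599 and 2771 bp and summits 367 bp apart. Such lengths were rare, as 5 members were longer than 2000 bp and 81 were longer than 1000 bp. The leading 4 members are therefore not typical of the 1092.

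Further long members had tighter summits. On chromosome 5 from 104606016 to 104607902 the peaks were 1634 and 1887 bp long and the summits 47 bp apart. On chromosome 11 from 3944650 to 3946398 they were 1657 and 1749 bp long and 41 bp apart. On chromosome 8 from 73929543 to 73930961 they were 1058 and 1419 bp long and 6 bp apart. These 3 had a MEIS1 peak 7817, 8250 and 8412 bp away, within the range of most members.

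A further member on chromosome 8, from 72565178 to 72566742, had peaks of 712 and 1565 bp. On chromosome 17 the members from 71280815 to 71282453 (909 and 1639 bp) and from 46371600 to 46372821 (1157 and 1222 bp) had MEIS1 peaks 30487 and 11854 bp away. The third on that chromosome, from 24303883 to 24305280 (765 and 1398 bp), was next to MEIS1, with a gap of 146 bp. On chromosome 15 from 17630412 to 17632099 the peaks were 965 and 1688 bp long, and the nearest MEIS1 peak was 171813 bp and the nearest other induced TGIF1 region 4875553 bp away. Long members were thus found both beside MEIS1 and in wide stretches without it.

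Members in the middle of the length order were also looked at. They were chosen after their values were seen, as the 5 at the centre of the mean rank. On chromosome 2 from 72135658 to 72136176 the peaks were 412 and 519 bp long with summits 5 bp apart, and MEIS1 was 4497 bp away. On chromosome 11 from 101148578 to 101149082 they were 434 and 505 bp long with summits 49 bp apart, and MEIS1 was 7976 bp away. On chromosome 1 from 155260277 to 155260876 they were 274 and 600 bp long with summits 26 bp apart, and MEIS1 was 250 bp away. On chromosome 6 from 145712710 to 145713234 they were 402 and 525 bp long with summits 71 bp apart, and MEIS1 was 17381 bp away. On chromosome 14 from 120776498 to 120777095 they were 279 and 598 bp long with summits 23 bp apart, and MEIS1 was 1717 bp away. Each consisted of 1 peak per list. Their mean rank is central, but each of the 5 lay outside the members' interquartile range in summit distance or in replicate 1 length.

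The members farthest from MEIS1 were also picked out after their values were seen. The farthest was on chromosome X from 76104793 to 76104993, 1063250 bp from any MEIS1 peak, and its peak of 162 bp in replicate 1 was the shortest of all member peaks there. A member on chromosome 7 from 15208470 to 15209041 had peaks of 425 and 572 bp with summits 7 bp apart and was 398205 bp from MEIS1. Another on chromosome 15 from 86793186 to 86793943 had 481 and 758 bp, summits 12 bp apart and a gap of 376448 bp. The 18 members over 100 kb from MEIS1 were spread over 12 chromosomes, with 3 on chromosome 18 and 2 on X. In the 5 members farthest from MEIS1 the replicate summits were 7 to 241 bp apart.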

How the data were processed

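Lysates were sonicated to fragments near 300 bp and up to 2 ng of E. coli carrier DNA was added, per the labels' protocols. The deposited files, 1 list per library, hold positions, lengths and summit offsets in bp. Reads were aligned with Bowtie 0.12.7 to mm9, per the submitters' processing notes. MACS 1.4.2 is named in 1 list, per the file headers. The sources used here do not give the caller of the other lists, or the control, threshold and filters of any. Length equalled end minus start plus 1 in all 182249 peaks.

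Groups came from the sample titles. Lists were merged at an overlap of 1 bp and regions were classed by the lists with a peak. Where a list had several peaks in a region, the longest gave the summit. Gaps count the bases between edges. Intervals are exact (Clopper-Pearson for shares, binomial order statistics for medians, 95%) except Newcombe's for differences, and cover counting error only. Length ranks within a list took the place of the score that the planned ranking assumed. Named were the 12 longest members, the 5 nearest to MEIS1 and the 5 non-members with the least overlap. Motifs, base composition, start sites and gene lists had been planned but were not run, because a genome and annotation of mm9 were not used here. The members and lists were chosen with earlier results of these data known.

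Python 3.11.15, numpy 2.4.6, pandas 2.3.3, scipy 1.17.1 and matplotlib 3.10.9 were used. The code was tested on simulated data with planted members, and bedtools 2.31.1 gave the same 60709 regions, and equal coordinates and MEIS1 gaps at all 1092 members.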

Additional observations from a re-analysis of the deposited data

How the results depend on the processing

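The lists decide what counts as a site without MEIS1. Only the longer 50% of each list gave 449 members, 8.57% of the TGIF1 4-OHT regions, with a median MEIS1 gap of 7314 bp and MEIS1 within 1 kb at 20.0%. Members then exceeded regions with MEIS1 in all lists by 9.86 points for replicate summits within 50 bp and by 2.49 points (95% interval -0.02 to 5.54) for a TGIF1 EtOH peak within 10 kb, and X exceeded the autosomes by 19.3 points. Joining peaks closer than 200 bp gave a share of 8.82%, a median MEIS1 gap of 4584 bp and MEIS1 within 1 kb at 18.2%. Ignoring TGIF1 EtOH peaks gave a share of 11.2% and an X difference of 20.7 points. Counting only overlaps of 50% of either peak gave MEIS1 within 1 kb at 31.5%. Disqualifying members with MEIS1 within 1 kb, chosen after seeing the data, gave a share of 7.11% and a median gap of 6712 bp. The TGIF1 EtOH difference was then 2.12 points (95% interval -0.04 to 4.61), with the comparison regions not restricted in this way. Without chromosome X, also chosen after seeing the data, the share of members was 9.81%. Fewer or shorter lists, or a wider exclusion, enter these values by construction; any other cause was not tested.

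Leaving out single libraries gave 1093 to 5565 members, shares of 9.90 to 21.2%, median MEIS1 gaps of 2716 to 4453 bp and MEIS1 within 1 kb at 23.8 to 33.1%. The TGIF1 EtOH difference was 1.58 to 5.80 points, the difference in close summits 6.24 to 8.43 points and the difference of X from the autosomes 9.22 to 17.3 points. The median summit distance was 13 to 15 bp in 12 of 12 alternatives that gave a value; it needs both TGIF1 4-OHT libraries. These 3 differences kept their sign in every alternative that gave a value, but the interval of the TGIF1 EtOH difference reached 0 in the 2 named above. The difference between treatments in MEIS1 within 1 kb of members did not: it was -8.0 to 7.43 points when single libraries were left out, 0.22 with the longer 50% of each list and 0.65 with the libraries of number 2.

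Nothing in the labels says that equal numbers pair the libraries, and 2 pairs cannot show it. As a replicate block, libraries of number 1 alone gave 3938 members, a share of 32.6%, a median MEIS1 gap of 7023 bp MEIS1 within 1 kb at 21.1% and a treatment difference in it of -4.67 points. Those of number 2 gave 5884 members, 22.4%, 2921.5 bp, a TGIF1 EtOH difference of 1.37 points and a treatment difference of 0.65 points. The alternatives planned for motifs, base composition and start sites were not run.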

Other observations

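Regions with a peak in a single TGIF1 4-OHT list lie just outside the rule. TGIF1 4-OHT replicate 2 alone held 15166 regions, and 4469 of them (29.5%) had no MEIS1 and no TGIF1 EtOH peak. Their median TGIF1 peak length was 464 bp (interquartile range 404 to 535 bp), and the nearest MEIS1 peak was a median of 2558 bp away. TGIF1 4-OHT replicate 1 alone held 410 regions, of which 165 (40.2%) had none of these peaks. Their median length was 347 bp and their median gap to MEIS1 was 7257 bp.

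The 144 regions with TGIF1 in both 4-OHT lists, a TGIF1 EtOH peak and no MEIS1 had TGIF1 summits a median of 9 bp apart (exact 95% interval of the median 8 to 11 bp). Their nearest MEIS1 peak was a median of 4778.5 bp away.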
